A study of Homo sapiens with 132 samples.

Results

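Gene expression of untreated MKN1 cells was compared between the late and the early time point of a treatment series, 24 h against 4 h. MKN1 is an established gastric cancer cell line from a metastatic site. It was grown in RPMI medium with fetal calf serum. The comparison rests on 2 of the 44 conditions of the series, 3 replicate libraries at 4 h and 3 at 24 h, chosen by their labels (cell line MKN1, untreated). No library received EGF, cetuximab, trastuzumab or afatinib. All genes that passed the count filter were tested, so the rule did not use any measured value. The untreated dishes served as controls at each time point, and their change from 4 h to 24 h is what a treated dish at 24 h is set against when it is compared with a control at 4 h. Cells had been seeded the day before and the medium was changed shortly before the time course, so hours in the same medium, cell density and hours since seeding cannot be told apart here. It was set beside the same step in untreated MKN7, NCI-N87 and Hs746T, 3 further gastric cancer lines (RPMI medium for MKN7 and NCI-N87, DMEM for Hs746T), and in MKN1 dishes given trastuzumab (an antibody against HER2, 5 µg/ml), EGF (5 ng/ml), cetuximab (an antibody against EGFR, 1 µg/ml) or afatinib (an inhibitor of the EGFR family kinases, 0.5 µM).

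The 6 libraries held 39005311 to 55291592 counts. Epithelial keratins marked all of them, with KRT8 at 10740 to 12380 CPM (counts scaled to a library total of 1000000), whereas CDH1 stayed between 0.94 and 3.31 CPM. Of 8 immune markers 4 were at 0 counts in every library, among them CD3D, MS4A1 and CD68, as was the endothelial marker KDR. Mitochondrial genes were at 0 as well, so 0 counts may come from the counting and do not show absent expression. The immune markers summed to 3.16 to 3.69 CPM at 4 h and 6 to 6.98 CPM at 24 h, nearly all of it CD14 (2.95 to 3.67 CPM, then 5.71 to 6.71 CPM), and PTPRC, the common leukocyte antigen, had at most 0.0465 CPM at 4 h and 0.134 to 0.218 CPM at 24 h. Fibroblast markers summed to 74.2 to 109.4 CPM at 4 h and 93.4 to 191 CPM at 24 h, nearly all of it LUM, and the endothelial list to 7.03 to 15.5 CPM and 12.4 to 28.8 CPM, mainly PECAM1. Their part in the results was not tested. Replicate 2 stood apart from the others at both time points, with squared differences from them 40 to 52.9 times the counting error against 17.9 and 20.6 times between replicates 1 and 3. For MKN1 the sample numbers in the labels restart between replicates 2 and 3, and each series of numbers holds both time points. In Hs746T they restart between the 4 h and the 24 h libraries of replicate 2, and in MKN7 and NCI-N87 before replicate 2.

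Cells in culture receive growth signals from serum and from factors they release themselves. Ligands such as amphiregulin, epiregulin and HB-EGF activate EGFR, the MAPK cascade passes the signal on, and AP-1 transcription factors such as FOSL1 carry it to target genes. NF-kB drives the genes of chemokines and interleukins together with those of its own inhibitors, including NFKBIA and TNFAIP3. ID proteins are targets of BMP signalling, whose ligands are bound and blocked outside the cell by Gremlin (GREM1) and Noggin (NOG). Medium is used up and cells become denser between feedings, and gene expression can differ between time points without any drug.

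Of the 47 gene lists described below, the chemokine and interleukin genes had the largest share of tested members regulated in one direction. Promoter sequence of 3 of their members is given, as the 200 bases before the RefSeq transcription start (GRCh38.p14), read 5′ to 3′ along the gene. CXCL8 encodes interleukin 8 (chr4:73740369-73740568, plus strand), CXCL1 a chemokine for neutrophils (chr4:73869193-73869392, plus strand) and IL11 the cytokine interleukin 11 (chr19:55370464-55370663, minus strand). Capitals mark matches on either strand to the AP-1 motif TGANTCA or the NF-kB motif GGAANTTCC, which do not overlap each other and were chosen after the expression values were seen.
CXCL8: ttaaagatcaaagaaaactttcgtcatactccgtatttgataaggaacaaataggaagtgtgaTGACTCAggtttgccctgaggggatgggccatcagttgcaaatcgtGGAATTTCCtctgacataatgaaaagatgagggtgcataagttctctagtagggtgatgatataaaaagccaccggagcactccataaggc
CXCL1: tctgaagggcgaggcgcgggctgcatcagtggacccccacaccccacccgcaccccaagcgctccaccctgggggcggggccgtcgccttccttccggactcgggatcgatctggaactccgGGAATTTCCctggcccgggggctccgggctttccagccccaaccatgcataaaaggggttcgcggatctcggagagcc
IL11: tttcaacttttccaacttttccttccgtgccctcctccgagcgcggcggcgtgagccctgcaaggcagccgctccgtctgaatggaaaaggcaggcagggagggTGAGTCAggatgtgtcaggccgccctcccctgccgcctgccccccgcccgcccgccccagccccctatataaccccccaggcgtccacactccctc
The CXCL8 window held both motifs, the AP-1 match upstream of the NF-kB match, which ended 83 bases before the start. The CXCL1 window held the NF-kB motif and the IL11 window the AP-1 motif. In the 250 bases before the start, 9 of the 23 list members with a RefSeq promoter held the NF-kB motif (39.1%), against 0.826% of all 35116 promoters, and 6 held the AP-1 motif (26.1%), against 6.57% of all. A member counted if any of its promoters matched, while the share of all was taken over single promoters. The units thus differ, which favours the members. A match is a description of the sequence and does not show that a factor was bound in these cells.

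A gene was called regulated when its log2 fold change (log2FC) was above 1 or below -1 and its p.adjust was below 0.05. From 4 h to 24 h, 1598 of 19815 genes were regulated (8.06%), 1241 higher (6.26%) and 357 lower (1.8%). With p.adjust alone, 3502 genes were higher and 3251 lower, so the surplus of rises lay among the larger fold changes. The median log2FC of all genes was 0.03. Scaling by library size alone moved this median to 0.21 and the counts to 1832 higher and 224 lower, that is from 77.7% to 89.1% of calls in the higher direction, so changes are given relative to the bulk of genes. The 3 libraries at 24 h lay all above or all below those at 4 h for 1161 of the genes called higher and 342 of those called lower, against 22.6% (above) and 20.4% (below) of all genes tested. The calls came from the same libraries and largely fixed this separation, so it is no further support for them.

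Rises and falls differed in level. Among protein-coding genes with a mean log2 CPM above 6, 9 were higher and 45 lower of 3717 tested. Below a mean log2 CPM of 0, 313 were higher and 66 lower of 2457. Long intergenic RNAs were called higher more often than protein-coding genes, in 294 of 1911 (15.4%) against 701 of 14649 (4.79%), but their median level was also lower, with a mean log2 CPM of -1.30 against 4.47. Of 1271 antisense RNAs 8.34% were higher and 1.42% lower. The submitters used a directional kit, but the strand setting of their counting is not given in the sources used here, so reads of an antisense gene and its partner may not be separated.

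CXCL8 and CCL2, which encode secreted chemokines, had the largest falls under the conditions given next. The 12 genes named here and the 12 rises that follow had the largest log2FC among regulated protein-coding genes with a mean log2 CPM above 1 and the same direction in all 3 same-numbered pairs (280 genes higher and 170 lower met this). For all of them, a gap between the time points follows largely from this selection. CXCL8 (chr4:73740506-73743716) had 12.3, 12 and 10.9 CPM at 4 h and 0.765, 0.777 and 1.12 CPM at 24 h. This is a 13.3-fold lower level (log2FC -3.74 ± 0.31 SE, p.adjust = 7.00e-11). CCL2, a chemokine for monocytes, had 7.88, 8.05 and 4.99 CPM at 4 h and 0.889, 1.21 and 0.623 CPM at 24 h (log2FC -2.94). CXCL1 fell from 5.35, 6.10 and 3.75 CPM to 0.925, 1.04 and 1.25 CPM (log2FC -2.25). Its close relatives CXCL2 and CXCL3 share sequence with it, so the split of reads between them is uncertain. IL11 decreased from 25.2, 27.1 and 24.2 CPM to 4.36, 4.97 and 8.33 CPM (log2FC -2.12). The 4 h and 24 h libraries of these 4 genes did not overlap.

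FOSL1 (FRA-1), a subunit of AP-1, was the most abundant gene at 4 h among these 12, with 421, 413 and 387 CPM against 68.3, 75.1 and 125.4 CPM at 24 h (log2FC -2.19 ± 0.28 SE, p.adjust = 2.87e-07). The BMP antagonist GREM1 had 134.9, 116.8 and 90.6 CPM at 4 h and 26.8, 25.2 and 22 CPM at 24 h (log2FC -2.21). HMGA2, a chromatin protein of embryonic and tumour cells, had 59.6, 63.6 and 64.9 CPM and then 11.5, 14.4 and 16.6 CPM (log2FC -2.14). AKAP12, a scaffold for protein kinase A, had 236, 183 and 275 CPM and then 52.8, 43.4 and 45.4 CPM (log2FC -2.29). These 4 regulators kept a clear gap between the time points in every pair.

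MLPH (melanophilin), which links vesicles to motor proteins, had the smallest error of the 12, with 67, 75.2 and 73.1 CPM at 4 h and 15.3, 13.5 and 17.7 CPM at 24 h (log2FC -2.21 ± 0.10 SE). The calcium-activated chloride channel ANO1 decreased from 47.3, 38.3 and 53.6 CPM to 9.80, 8.28 and 13.1 CPM (log2FC -2.16), and the membrane protein gene TMEM200A from 50.5, 49.5 and 56.4 CPM to 7.81, 7.09 and 13.1 CPM (log2FC -2.49). KRT6A, a keratin of stressed and regenerating epithelium, had the largest error of the 12 falls, with 74.6, 24.8 and 35.5 CPM at 4 h and 11.6, 4.48 and 11.2 CPM at 24 h (log2FC -2.30 ± 0.55 SE, p.adjust = 0.0013). Its near-copy KRT6B had at most 0.484 CPM, and reads of both genes may not be separable.

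**Figure D1:**
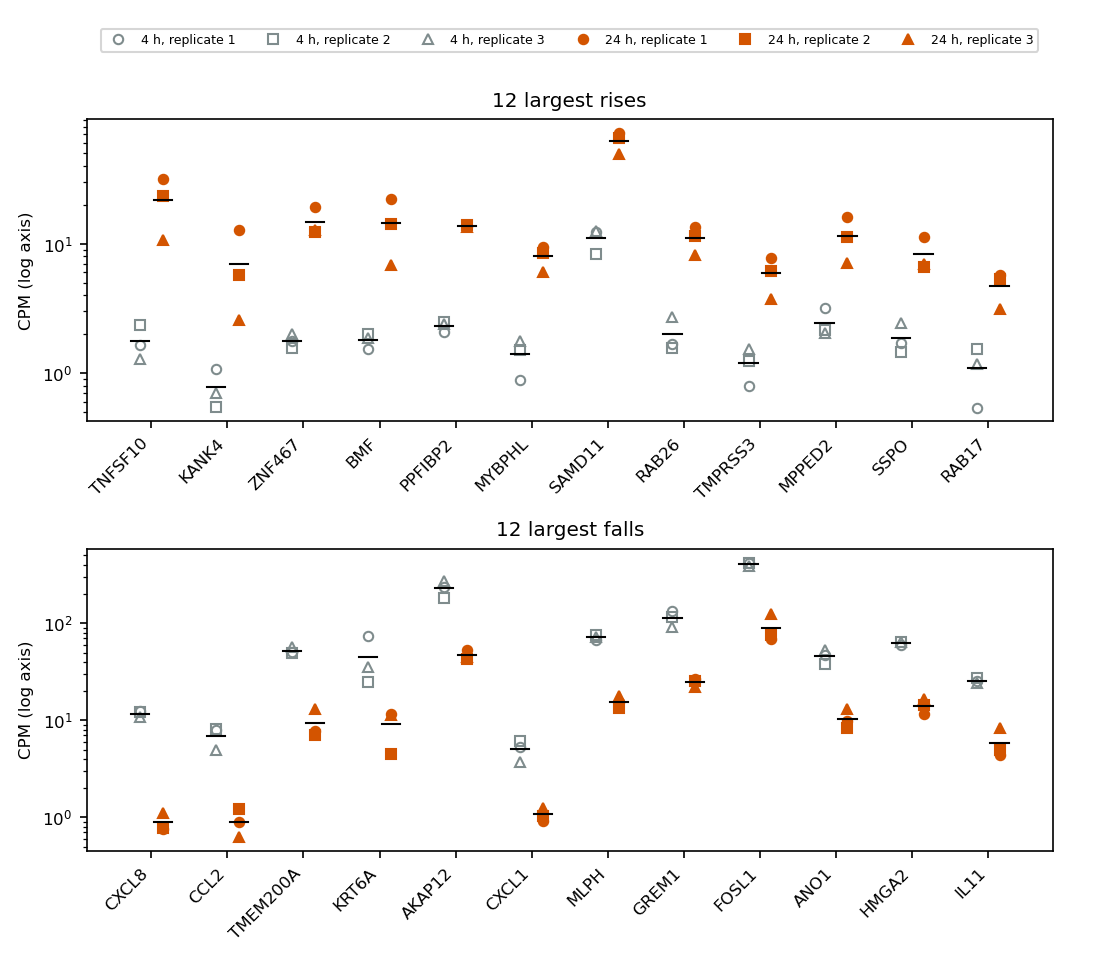
CPM on a log axis for the 12 genes with the largest rises (upper panel) and the 12 with the largest falls (lower panel). Open grey symbols are the 3 libraries at 4 h, filled orange symbols the 3 at 24 h, the symbol shape gives the replicate and the bar is the group mean. The groups do not overlap for any of the 24 genes, and replicate 3 at 24 h often lies nearest to the 4 h values.

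The largest rise was that of a death ligand. TNFSF10 (TRAIL, chr3:172505508-172523507), which binds death receptors, had 1.65, 2.35 and 1.30 CPM at 4 h and 31.7, 23.5 and 10.6 CPM at 24 h. This is a 12.4-fold higher level (log2FC 3.64 ± 0.29 SE, p.adjust = 4.25e-11). BMF, a BH3-only protein that promotes apoptosis, had 1.55, 2.02 and 1.86 CPM at 4 h and 22.3, 14.3 and 6.87 CPM at 24 h (log2FC 3.01 ± 0.35 SE). Both genes were highest in replicate 1 and lowest in replicate 3 at 24 h. BBC3 (PUMA), another BH3-only gene, had 3.16, 4.97 and 3.67 CPM and then 8.40, 8.62 and 6.33 CPM, which missed the fold threshold (log2FC 0.99, p.adjust = 0.00011) but passed it under library size scaling (1.16), with the replicate as a block (1.001) and without 4 h replicate 2 (1.19) or 24 h replicate 3 (1.115), and the death receptor FAS had a log2FC of 0.26.

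Next among the rises, RAB26 had 1.69, 1.57 and 2.73 CPM at 4 h and 13.4, 11.4 and 8.12 CPM at 24 h (log2FC 2.47), and RAB17, a small GTPase of epithelial cells, had 0.542, 1.55 and 1.19 CPM and then 5.78, 5.35 and 3.11 CPM (log2FC 2.15). The transmembrane serine protease TMPRSS3 increased from 0.794, 1.25 and 1.54 CPM to 7.79, 6.13 and 3.76 CPM (log2FC 2.33). PPFIBP2 (liprin beta 2) was the most even of the 12 rises at 24 h, with 2.07, 2.50 and 2.40 CPM and then 13.7, 13.9 and 13.4 CPM (log2FC 2.56). None of these 4 genes exceeded 2.73 CPM at 4 h, and their groups did not overlap.

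SAMD11 was the most abundant riser, with 12.3, 8.37 and 12.4 CPM at 4 h and 71.6, 65.2 and 49.7 CPM at 24 h (log2FC 2.49 ± 0.19 SE). The zinc finger gene ZNF467 had 1.78, 1.57 and 2 CPM and then 19.3, 12.4 and 12.7 CPM (log2FC 3.05). KANK4, of a family that regulates the actin skeleton, spread widely at 24 h, with 12.8, 5.70 and 2.58 CPM against 1.08, 0.550 and 0.702 CPM at 4 h (log2FC 3.15 ± 0.44 SE). The remaining 3 rises were MYBPHL (log2FC 2.54), the metallophosphoesterase MPPED2 (log2FC 2.21) and SSPO (log2FC 2.16), whose 24 h levels ranged from 6.01 to 16 CPM.

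For most called genes the 3 pairs gave the same direction but not the same size. Over the genes called higher, the median difference in log2 CPM was 1.46 in pair 1, 1.35 in pair 2 and 1.10 in pair 3. For the genes called lower it was -1.39, -1.36 and -1.16. Pair 3 had the smallest difference for 58.2% of the higher and 60.8% of the lower genes. The direction was the same in all 3 pairs for 1213 of 1241 and 353 of 357 genes. These genes were called from the same libraries, so the call itself largely fixed this agreement.

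Calls among chemokine and interleukin genes were nearly all falls. Of 33 genes on the list, 25 passed the filter, 12 were lower and 1 was higher, against 1.8% and 6.26% of all genes. The median log2FC was -0.90 (all genes 0.03). With at least 10 counts in every library 7 were lower and the median was -0.52. Beside CXCL8, CCL2, CXCL1 and IL11, the colony stimulating factor CSF2 had 2.15, 2.70 and 3.35 CPM at 4 h and 0.125, 0.184 and 0.644 CPM at 24 h (log2FC -3.13). IL6 had 3.76, 3.65 and 2.13 CPM and then 1.01, 0.715 and 0.429 CPM (log2FC -2.13). IL1B was lower as well (log2FC -2.25), from at most 0.659 CPM. LIF, IL24, CXCL3, CXCL5 and CXCL6 made up the 12, with log2FC between -1.34 and -1.58. CXCL2 was not called and had 0.659, 0.900 and 1.05 CPM and then 0.872, 1.04 and 1.29 CPM (log2FC 0.30, p.adjust = 0.59), and the epithelial cytokine TSLP was higher (log2FC 1.23). The calls for CXCL3, CXCL5, CXCL6 and IL24, all at or below 1.07 CPM, were lost without 4 h replicate 2, with a log2FC of -1.08 for CXCL3, -0.998 for CXCL5, -1.345 for CXCL6 and -1.355 for IL24. They were also lost without 24 h replicate 1 for CXCL5 (-1.15), CXCL6 (-1.58) and IL24 (-1.27), without 24 h replicate 3 for CXCL3 (-1.34) and CXCL6 (-1.39), and without 4 h replicate 1 for CXCL6 (-1.56), which also lost it under library size scaling (-1.41). The call for TSLP was lost without 4 h replicate 1 (log2FC 0.91).

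NF-kB targets and feedback genes were lower where they were called. All 20 were tested, 5 were lower and none was higher, against 1.8% and 6.26% of all genes (median log2FC -0.38). With p.adjust alone 11 were lower and 2 higher, against 16.4% and 17.7% of all genes. TNFAIP3 (A20), an inhibitor of the pathway, had 18.3, 22.5 and 24.8 CPM at 4 h and 5.39, 6.36 and 6.29 CPM at 24 h (log2FC -1.86 ± 0.12 SE). The apoptosis inhibitor BIRC3 had 56.8, 68.8 and 88.8 CPM and then 19.6, 16.5 and 25 CPM (log2FC -1.81). The subunit RELB (log2FC -1.25), the adhesion molecule ICAM1 (log2FC -1.07) and the inhibitor NFKBIE (log2FC -1.04) were the others. NFKBIA, the best-known inhibitor, had a log2FC of -0.51 (p.adjust = 0.00052), within the fold threshold. Scaling by library size alone left ICAM1 at -0.90 and NFKBIE at -0.86, so 3 of the list were then lower and 1 higher, and NFKBIE was at -0.99 without 4 h replicate 2.

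EGFR ligands, MAPK feedback and AP-1 genes were split. Of 22 tested genes on the MAPK feedback list, 5 were lower and 1 higher, against 1.8% and 6.26% of all genes (median log2FC -0.54). Those lower were DUSP4, DUSP7, CCND1, IL11 and LIF. IL11 and LIF are cytokines already counted among the chemokine and interleukin genes, so the lists are not separate here. The medians of the pairs were -0.79, -0.77 and -0.15. Without 24 h replicate 3, 10 were lower (SPRY4 at -1.52 and ETV5 at -1.15 among them) and the median was -0.79. It was -0.25 without 24 h replicate 1, -0.32 without 24 h replicate 2 and -0.34 without 4 h replicate 3. The phosphatase DUSP4 had 103.6, 104.1 and 105.2 CPM at 4 h and 31.1, 36.4 and 62.5 CPM at 24 h (log2FC -1.27), and DUSP7 had 111.4, 92.8 and 127.4 CPM and then 42.4, 34.8 and 52.5 CPM (log2FC -1.35). Cyclin D1 (CCND1) decreased from 1118, 881 and 973 CPM to 361, 338 and 515 CPM (log2FC -1.29). For DUSP6, a direct readout of ERK activity, the libraries overlapped, with 28, 24.3 and 42.5 CPM and then 15.5, 14.6 and 41.2 CPM (log2FC -0.41, p.adjust = 0.41), and it was called at -1.07 without 24 h replicate 3. The feedback inhibitor SPRED3 was the member called higher (log2FC 1.27).

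All 14 genes of the EGFR family and its ligands were tested, and 3 were lower and 2 higher, against 1.8% and 6.26% of all genes. The ligand genes EREG, HBEGF and AREG had log2FC of -1.17, -1.15 and -1.10. Their libraries overlapped for EREG (100.4, 72.6 and 137.3 CPM, then 31.3, 23.7 and 83 CPM) and AREG (15.7, 16 and 30.4 CPM, then 5.80, 6.33 and 17 CPM), with replicate 3 the highest at both time points. Both were lower at 24 h in each same-numbered pair, and both calls were kept with the replicate as a block. Fits that left out a library did not use the pairs. Without 4 h replicate 3 the log2FC was -0.91 for EREG (p.adjust = 0.095) and -0.72 for AREG (p.adjust = 0.24). In a fit on only the groups compared neither passed (-1.17 and -1.10, p.adjust = 0.064 and 0.074). Both calls were also lost without 24 h replicate 1 (-0.96 and -0.83) or 24 h replicate 2 (-0.86 and -0.87), and HBEGF was at -0.94 without 24 h replicate 1 and at -0.98 under library size scaling, which also left AREG at -0.94. EGF itself was higher, from 0.504, 0.725 and 0.918 CPM to 2.33, 1.96 and 1.22 CPM (log2FC 1.39), and so was NRG4 (log2FC 1.22, and 0.99 without 4 h replicate 2). The receptor EGFR had 492, 407 and 443 CPM at 4 h and 292, 230 and 251 CPM at 24 h (log2FC -0.79, p.adjust = 0.00049), and ERBB2 showed no call (log2FC 0.31, p.adjust = 0.13).

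Immediate early genes, which respond to stimuli within minutes, moved in both directions. Of 24 tested, 3 were higher and 2 lower, against 6.26% and 1.8% of all genes. FOS had 13.5, 13.9 and 13 CPM at 4 h and 29.9, 33.5 and 34.6 CPM at 24 h (log2FC 1.28), and EGR2 had 0.523, 0.525 and 0.918 CPM and then 5.00, 1.39 and 2.13 CPM (log2FC 2.14). EGR1 rose in each pair but its libraries overlapped, with 97.5, 53.9 and 136.3 CPM and then 232, 113.4 and 282 CPM (log2FC 1.12, p.adjust = 0.012), and it was at 0.84 without 4 h replicate 2 and at 0.85 without 24 h replicate 3. FOSL1 and MYC were the members called lower, MYC from 55.5, 54.9 and 46.1 CPM to 18.4, 19.5 and 25.4 CPM (log2FC -1.31). JUN had a log2FC of -0.95 (p.adjust = 4.26e-05). FOS and FOSL1, both subunits of AP-1, changed in opposite directions.

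ID genes rose while 2 secreted BMP antagonists fell. ID3 had 19.6, 15 and 14.2 CPM at 4 h and 68.1, 85 and 52 CPM at 24 h (log2FC 2.07 ± 0.20 SE, p.adjust = 1.18e-09). ID2 had 13.9, 12.3 and 10.7 CPM and then 42.3, 53.7 and 35.5 CPM (log2FC 1.83). ID1, the most abundant of the family, increased from 177, 165 and 182 CPM to 336, 395 and 427 CPM (log2FC 1.15). ID4 (log2FC 1.48) and the BMP target ATOH8 (log2FC 2.21) were higher from levels below 1 CPM. The antagonist NOG decreased from 10.3, 11.7 and 12.7 CPM to 2.05, 2.94 and 4.12 CPM (log2FC -1.94), beside GREM1. In all, 5 of the 16 genes were higher and 2 lower, against 6.26% and 1.8% of all genes, with a median log2FC of 0.15. This median was 0.08 without 4 h replicate 2, 0.26 without 4 h replicate 3, 0.32 under library size scaling and 0.07 with at least 10 counts in every library.

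Called by both criteria, the TGF-beta, YAP and actin and SRF lists gave falls and no rises, but with p.adjust alone TGF-beta and YAP targets went both ways. Of all genes 1.8% were lower and 6.26% higher by both criteria, and 16.4% and 17.7% with p.adjust alone. Of 16 TGF-beta targets, 3 were lower and none higher, and with p.adjust alone 5 were lower and 4 higher (median log2FC -0.23, which was -0.14 without 24 h replicate 2). PMEPA1, a target that limits TGF-beta signalling, had 229, 201 and 177 CPM at 4 h and 54.1, 52.9 and 53 CPM at 24 h (log2FC -1.92). Of 25 YAP and TEAD targets, 5 were lower and none higher, and with p.adjust alone 11 were lower and 5 higher (median log2FC -0.33), with the ectonucleotidase NT5E from 68.3, 57.4 and 42.9 CPM to 13.1, 16.6 and 13.3 CPM (log2FC -1.97) and tissue factor F3 at a log2FC of -1.36. The most used YAP readouts did not pass: CYR61 had a log2FC of -0.78, CTGF of -0.22 and ANKRD1 of 0.38. Of 27 actin skeleton and SRF target genes, 2 were lower, and with p.adjust alone 16 were lower and none higher (median log2FC -0.46). The 2 were FHL2 and the keratin gene KRT17, which is also on the keratin list. No actin gene itself passed both criteria. ACTB, the main cytoplasmic actin, had 6766, 6346 and 6158 CPM and then 4001, 3420 and 4021 CPM (log2FC -0.75). Under library size scaling 2 TGF-beta targets were lower, 3 YAP targets were lower and 1 higher. No gene of the actin and SRF list was then called (FHL2 at -0.97, KRT17 at -0.89). Without 4 h replicate 1, 3 YAP targets (median -0.17) and 1 gene of the actin and SRF list were lower, with KRT17 at -0.95. Without 24 h replicate 3 it was also 1 gene of that list, with KRT17 at -0.90.

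Of 31 collagen and basement membrane genes, 5 were lower (1.8% of all genes) and none higher (median log2FC -0.31, which was -0.18 without 4 h replicate 1). LAMA3, which encodes a laminin chain, had 172, 183 and 289 CPM at 4 h and 49.1, 43.5 and 72.1 CPM at 24 h (log2FC -1.97). LAMB3, another laminin chain, had a log2FC of -0.83 (p.adjust = 0.0028). Of 16 integrin genes, ITGA2 (log2FC -1.55) and ITGA6 (log2FC -1.10) were lower and none was higher, and ITGA6 was at -0.93 under library size scaling, at -0.88 without 24 h replicate 2 and at -0.97 without 4 h replicate 3. Of 16 matrix protease and inhibitor genes, 5 were lower and 1 higher (median log2FC -0.38, but -0.12 in a fit on only the groups compared), among them the urokinase receptor PLAUR (log2FC -1.22), MMP9 (log2FC -1.51) and MMP7 (log2FC -1.22) and, as the riser, MMP14 (log2FC 1.01, which was 0.96 without 4 h replicate 2, 0.91 without 24 h replicate 2 and 0.99 without 4 h replicate 3).

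Of 26 tested junction genes, 4 were higher (6.26% of all genes) and none lower, and with p.adjust alone 8 were higher and 1 lower (median log2FC 0.34, which was 0.21 without 4 h replicate 2). The claudin CLDN7 had 0.775, 1.42 and 1.65 CPM at 4 h and 5.85, 5.80 and 4.55 CPM at 24 h (log2FC 2.10 ± 0.38 SE, p.adjust = 5.01e-05). CLDN4 had 5.11, 7.65 and 5.59 CPM and then 13.2, 14.2 and 13.2 CPM (log2FC 1.15), and the tight junction scaffold TJP3 had 3.62, 3.57 and 5.67 CPM and then 15.6, 13.8 and 14.5 CPM (log2FC 1.78). The adhesion molecule F11R was at the threshold (log2FC 1.03), at 0.91 without 4 h replicate 1, 0.95 without 24 h replicate 1 and 0.90 without 4 h replicate 2. E-cadherin (CDH1) was not called, with 1.01, 2.27 and 1.30 CPM and then 3.11, 2.17 and 2.34 CPM (log2FC 0.75, p.adjust = 0.083), but was at 1.155 and called without 4 h replicate 2. Of 18 genes of epithelial to mesenchymal transition 1 was lower, the intermediate filament vimentin (VIM), from 687, 702 and 512 CPM to 300, 315 and 318 CPM (log2FC -1.03). VIM lay at the threshold, with -0.85 under library size scaling, -0.9965 with the replicate as a block, -0.96 without 4 h replicate 1 and -0.95 without 4 h replicate 2.

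Most genes that make ribosomes were lower, nearly all within the fold threshold. With p.adjust alone 30 of 33 tested ribosome biogenesis genes were lower and none was higher, against 16.4% lower among all genes, and the median log2FC was -0.63. Of these 33, LYAR passed both criteria (log2FC -1.08, and -0.91 under library size scaling). Nucleolin (NCL) had 2845, 2628 and 2508 CPM at 4 h and 1545, 1460 and 1726 CPM at 24 h (log2FC -0.75), and POLR1B, a subunit of RNA polymerase I, had 217, 203 and 216 CPM and then 127.3, 121.6 and 151.5 CPM (log2FC -0.67). The median was -0.46 when libraries were scaled by size alone. Ribosomal protein genes themselves showed no call among 72 tested, and their median log2FC of -0.11 turned to 0.07 under that scaling and to 0.08 without 4 h replicate 2, against -0.31 without 24 h replicate 2.

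Chaperones and cell cycle genes showed small shifts. Of 19 genes of the ER chaperone list 11 and of 15 heat shock genes 10 were lower by p.adjust alone (medians -0.33 and -0.35), with HSPA5 at a log2FC of -0.40 and HSPA8 at -0.47. None of these passed the fold threshold downwards, and the small heat shock protein gene CRYAB, below 0.8 CPM, was called higher (log2FC 1.19), but was at 0.89 without 24 h replicate 1 and at 0.9995 without 4 h replicate 3, and did not pass in a fit on only the groups compared (1.19, p.adjust = 0.064). No gene was called among 49 S phase and 52 G2/M genes. By p.adjust alone 19 S phase genes were lower and none higher (median -0.20, and -0.03 under library size scaling), and 11 G2/M genes were lower and 4 higher (median -0.11, which turned to 0.07 under that scaling). Of all genes 16.4% were lower and 17.7% higher by p.adjust alone. CCNB1, the mitotic cyclin, had 506, 614 and 524 CPM and then 423, 495 and 445 CPM (log2FC -0.27, p.adjust = 0.15).

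Some genes of the ATF4 list and of the FOXO and growth arrest list rose. Of 28 ATF4 targets, 5 were higher, against 6.26% of all genes, and none lower (median log2FC 0.41, which was 0.27 without 24 h replicate 2). DDIT4, which inhibits mTORC1, had 3.16, 4.35 and 3.56 CPM at 4 h and 9.62, 12.9 and 8.63 CPM at 24 h (log2FC 1.5), and JDP2 had 10.6, 9.62 and 6.80 CPM and then 33.3, 29 and 23.4 CPM (log2FC 1.66). The cystine transporter SLC7A11 (log2FC 1.2), NUPR1 (log2FC 2.69, from at most 0.189 CPM) and GDF15 (log2FC 1.27, p.adjust = 0.047) were the others, and GDF15 lost its call in DESeq2 (adjusted p = 0.051) and without 4 h replicate 1 (0.9985), 4 h replicate 3 (1.198), 24 h replicate 2 (1.18) or 24 h replicate 3 (1.06). No other gene of the ATF4 list was called, which includes ASNS, CHAC1 and TRIB3. Of 22 FOXO and growth arrest genes 4 were higher and 1 lower, against 6.26% and 1.8% of all genes (median log2FC 0.34). PDK4, an inhibitor of pyruvate dehydrogenase, rose from 10.5, 9.47 and 15.2 CPM to 39, 25 and 26.8 CPM (log2FC 1.37). GADD45A was the member called lower (log2FC -1.30).

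Of 22 clock genes, 2 were higher, DBP among them, and NPAS2 was lower, against 6.26% of all genes higher and 1.8% lower. DBP, an output gene of the circadian clock, had 4.34, 4.05 and 4.75 CPM at 4 h and 19.2, 17.2 and 15.2 CPM at 24 h (log2FC 1.98 ± 0.16 SE, p.adjust = 2.88e-11). NPAS2 had 49, 43.9 and 57.8 CPM and then 19.5, 19.5 and 31.7 CPM (log2FC -1.09), and was at -0.93 under library size scaling, -0.98 without 24 h replicate 1 or 4 h replicate 3 and -0.97 without 24 h replicate 2. PER1 had a log2FC of 0.67 (within the fold threshold) and NR1D1 of 0.20 (p.adjust = 0.18). The time points are 20 h apart, and other phases were not sampled. Of 33 interferon-stimulated genes, XAF1 (log2FC 1.95) and SAMD9L (log2FC 1.46) were higher and none was lower, a share no larger than that of all genes (6.26% higher), while ISG15, a standard marker of the response, was at 0.16.

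**Figure D2:**
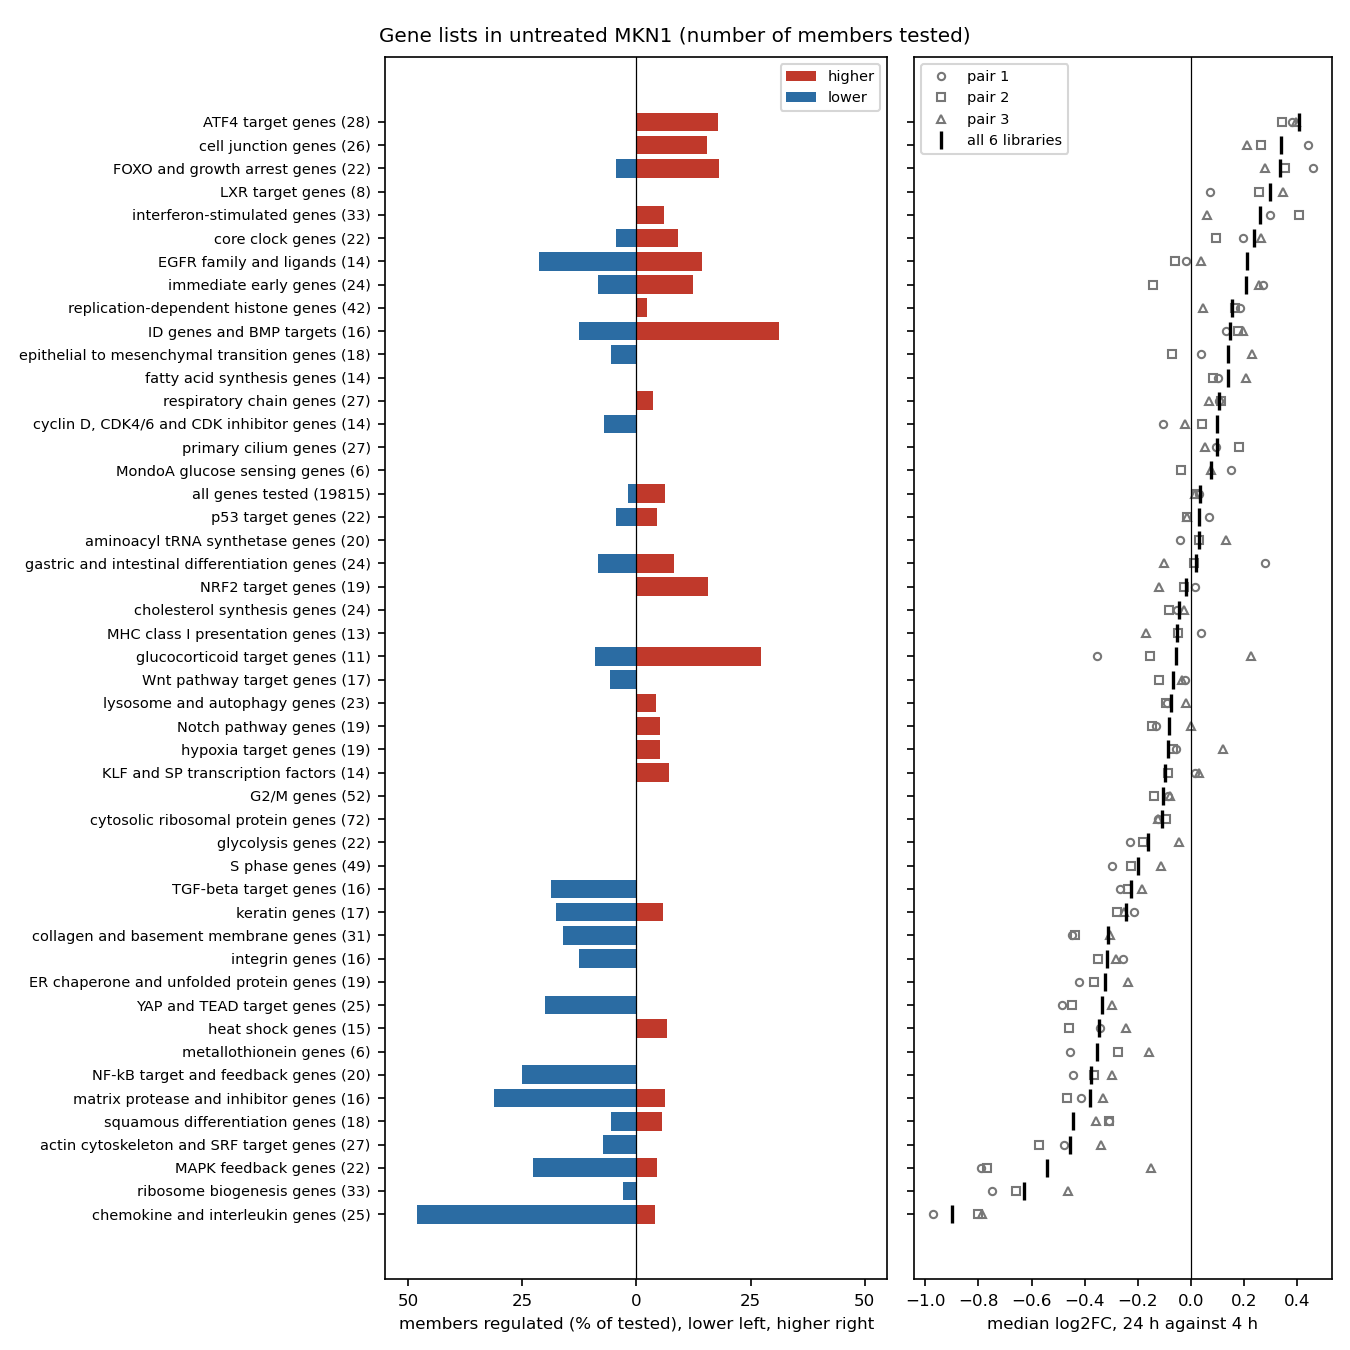
For each of 47 gene lists and for all genes tested, the left panel gives the share of tested members called lower (blue, to the left) and higher (red, to the right), with the number tested in brackets. The right panel gives the median log2FC as a black bar and the medians within the 3 same-numbered pairs as open symbols, and the lists are ordered by this median from ATF4 targets (0.41) to chemokine and interleukin genes (-0.90).

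The remaining lists held few calls. The keratin and the gastric and intestinal lists held 4 each and the squamous list 2. Of the 3 keratin genes called lower, the count was 1 without 4 h replicate 1 or 24 h replicate 3, and of the gastric and intestinal genes 2 were called without 24 h replicate 2. Of 22 glycolysis genes and 24 cholesterol synthesis genes none was called. Of 19 hypoxia targets 1 was called, the DDIT4 gene already described. The lists of LXR, MHC class I, MondoA, fatty acid synthesis, aminoacyl tRNA synthetase, metallothionein and primary cilium genes held no call either, and those of p53, Notch, Wnt, KLF, lysosome, respiratory chain, glucocorticoid, NRF2, cyclin D and histone genes held between 1 and 4.

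Trastuzumab-treated dishes gave a second measurement of the same 20 h in other libraries of the same fit. Same-numbered libraries of both treatments shared deviations. KRT6A at 4 h had 74.6, 24.8 and 35.5 CPM untreated and 71.2, 25.7 and 40 CPM with trastuzumab. The second measurement is therefore not shown to be an independent repeat. From 4 h to 24 h with trastuzumab 1053 genes were higher (5.31%) and 387 lower (1.95%). Called higher in both were 754 genes, 60.8% of the untreated and 71.6% of the trastuzumab list, and called lower in both were 266 genes, 74.5% and 68.7%. No gene was called in opposite directions. All 24 named genes were regulated in the same direction with trastuzumab, with log2FC from 1.75 to 3.69 for the rises and from -4.14 to -1.90 for the falls. In a test of the difference between both time effects no gene was called in edgeR or in DESeq2 (0%). At an unadjusted p under 0.05 were 229 and 186 genes, fewer than the 991 expected if no gene differed. With the replicate as a block there were again 0 calls, and 403 such genes. The test was thus too strict here, and 0 calls do not show that the time effects are equal. For the 24 genes the difference lay between -0.70 and 0.38 with standard errors of 0.13 to 0.75, so differences of this order cannot be resolved here. The list medians with trastuzumab were -1.20 for chemokine and interleukin genes, -0.61 for ribosome biogenesis genes and 0.25 for junction genes, against -0.90, -0.63 and 0.34 in untreated cells. FOS, EGR1 and EGR2 did not pass both criteria with trastuzumab (log2FC 0.76, 0.35 and 0.58, p.adjust = 0.0023, 0.48 and 0.32), but their time effect was not shown to differ (p.adjust of the difference rounded to 1 for each).

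These comparisons with EGF, cetuximab and afatinib were added after the data were seen. In all 248 genes were higher (1.25%) and 470 lower (2.37%) in this EGF time step, and 535 genes had a time effect that differed from that of untreated cells (2.7%), 78 of them more positive with EGF (0.394%) and 457 more negative (2.31%). With the replicate as a block, 889 genes differed. Among the largest differences, TNFSF10 had a log2FC of 3.64 untreated and 0.86 with EGF (difference -2.78 ± 0.44 SE, p.adjust = 0.00012), BMF 3.01 and 0.50 (difference -2.51), SAMD11 2.49 and 0.04 (difference -2.45 ± 0.27 SE) and RARRES1 0.96 and -1.90 (difference -2.86). In the other direction were the ubiquitin ligase MARCH4 (-1.67 and 0.52), PRR9 (-2.77 and -0.60, a call lost without untreated 24 h replicate 1, where the difference was 1.78), cadherin CDH11 (-1.64 and 0.49) and BMPER (-1.44 and 0.61), a modulator of BMP signalling.

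Of the 12 named rises, 11 had a called difference between EGF and untreated cells (MPPED2 not without EGF 4 h replicate 1, -1.31), and of the 12 named falls 1 (TMEM200A, -2.49 and -0.63). These genes were chosen by their untreated log2FC, which also enters the difference. CXCL8 had a log2FC of -4.02 with EGF, CCL2 of -4.20, CXCL1 of -2.69 and AKAP12 of -2.54, and the difference from the untreated time effect did not pass the test for any of these 4 (p.adjust of the difference 0.74, 0.09, 0.66 and 0.73). With EGF, CXCL8 had 33 to 53.7 CPM at 4 h and 2.65 to 3.09 CPM at 24 h, and CCL2 had 17.1 to 33.5 CPM and 1.10 to 1.66 CPM. CXCL1 had 9.19 to 19.6 CPM and 1.62 to 2.99 CPM, and AKAP12 807 to 1120 CPM and 143.3 to 189.7 CPM. At 4 h all EGF libraries of these 4 genes lay above all untreated ones, and at 24 h the groups overlapped for CCL2 and for none of the other 3. The levels themselves were not tested. By list, 12 of 25 chemokine and interleukin genes were lower with EGF (median -0.88), whereas the median of the ribosome biogenesis genes was -0.10 and that of the junction genes -0.21. By p.adjust alone the time effect of 23 of 33 ribosome biogenesis genes was more positive with EGF and that of none more negative (4.61% and 4.85% of all genes). Of the ID genes, ID3 had a log2FC of 0.31 with EGF, a difference that passed the test (p.adjust = 0.00011).

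With cetuximab and afatinib, which block EGFR or its kinase, 1882 (9.5%) and 2303 (11.6%) genes were higher at 24 h than at 4 h, and 526 (2.65%) and 822 (4.15%) were lower. All 12 named rises were called with either drug, with log2FC from 2.36 to 4.11 for cetuximab and from 2.42 to 4.54 for afatinib, and for none of them did the time effect pass the test for a difference from untreated cells. The differences lay between -0.13 and 1.05 for cetuximab and between 0.21 and 1.64 for afatinib. Per the study DMSO was the solvent of afatinib, and the labels name no DMSO control. An effect of the solvent was therefore not separated from that of afatinib. Over all genes the time effect differed for 11 genes with cetuximab (0.0555%) and for 0.575% of genes with afatinib, or for 83 and 300 genes with the replicate as a block. In fits on only the groups compared these numbers were 0 for cetuximab, with 1319 genes at an unadjusted p under 0.05, and 17 for afatinib. Of the 12 named falls, 11 were called with cetuximab and 12 with afatinib. The difference from untreated cells was called for 1 with cetuximab (MLPH) and 2 with afatinib (MLPH and CCL2). MLPH had a log2FC of -1.20 for cetuximab and -1.01 for afatinib against -2.21 untreated (p.adjust of the difference 0.00023 and 5.07e-06). Its level at 4 h was 27.4 to 31.2 CPM with cetuximab and 25.2 to 28.1 CPM with afatinib against 67 to 75.2 CPM untreated, while at 24 h it was 11.2 to 14.2, 12.8 to 14.1 and 13.5 to 17.7 CPM. The difference with cetuximab lay at the threshold, with 1.02 in the fit on only the groups compared (p.adjust = 0.11) and 0.92 to 0.998 when any one of 6 libraries was left out (untreated 4 h replicates 2 and 3, untreated 24 h replicate 2, cetuximab 4 h replicate 3 and 24 h replicates 1 and 3). CCL2 had a log2FC of -1.24 with cetuximab and -1.13 with afatinib, a difference from untreated cells that passed for afatinib (1.81, p.adjust = 0.032) and not for cetuximab (1.70, p.adjust = 0.16). CCL2 levels at 4 h were 2.255 to 4.265 CPM with cetuximab and 1.995 to 3.85 CPM with afatinib against 4.99 to 8.05 CPM untreated, and at 24 h 1.24 to 1.66, 1.02 to 1.68 and 0.623 to 1.21 CPM. The CCL2 call for afatinib did not hold in the fit on only the groups compared (1.82, p.adjust = 0.095) nor when any one of 8 of the 12 libraries was left out (1.59 to 1.82, p.adjust 0.053 to 0.12), the exceptions being untreated 4 h replicate 3, untreated 24 h replicate 2, afatinib 4 h replicate 2 and afatinib 24 h replicate 3. The apoptosis inhibitor BIRC3 had -0.50 and -0.25 against -1.81, a difference that passed for afatinib (p.adjust = 0.006, but 0.071 in the fit on only the groups compared) and not for cetuximab (p.adjust = 0.091). NAV3, a regulator of microtubules, was lower in untreated cells (log2FC -1.44), and its time effect was more positive with cetuximab (by 1.95) and with afatinib (by 1.91), the former not in the fit on only the groups compared (p.adjust = 0.052).

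**Figure D3:**
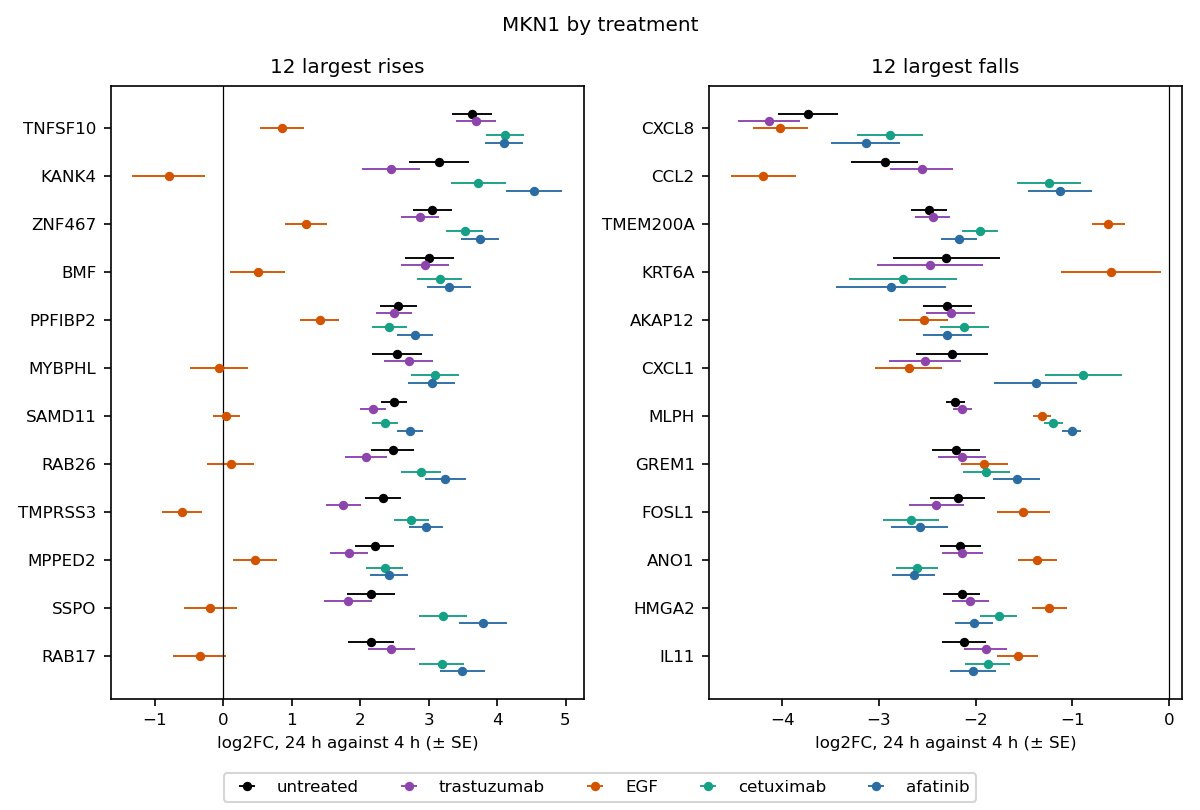
The log2FC of 24 h against 4 h (± SE) in MKN1 cells that were untreated or given trastuzumab, EGF, cetuximab or afatinib, for the 12 largest rises (left) and the 12 largest falls (right) of untreated cells. With EGF the rises lie between -0.80 and 1.40, apart from all other treatments, while the falls of CXCL8, CCL2, CXCL1, AKAP12 and GREM1 stay near or below those of untreated cells.

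Fewer genes were called for the same step in the other lines. Untreated MKN7 cells had 199 regulated genes, 0.72% of genes higher and 0.248% lower. NCI-N87 had 12 genes lower (0.0584%) and none higher (0%). Of the Hs746T genes 7 were higher (0.034%) and 10 lower (0.0486%). In NCI-N87, 1518 genes had an unadjusted p under 0.05 and DESeq2 called 0 genes higher and 19 lower. With the replicate as a block the sums were 375, 43 and 54. The time effect of MKN1 differed from that of MKN7 for 232 genes (1.13%), from NCI-N87 for 607 (2.95%) and from Hs746T for 630 (3.06%), or for 2.63%, 5.24% and 5.2% with the block. Of the genes called higher in MKN1, 47 were also called higher in MKN7, 4.03% of the MKN1 and 31.8% of the MKN7 list, and all 1166 of them that were tested had a median log2FC of 0.43 in MKN7, while NCI-N87 gave 0.04 and Hs746T 0.07. For the 345 genes called lower it was -0.37, -0.13 and -0.09.

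The fall of CXCL8 differed from each of the other lines. The 3 comparisons share the MKN1 libraries, and genes named for a large MKN1 change favour a difference. Its mean was 24.4 and 16.7 CPM at 4 h and 24 h in MKN7, 12.1 and 7.01 CPM in NCI-N87 and 10.4 and 6.57 CPM in Hs746T, against 11.5 and 0.875 CPM in MKN1 in the same fit. The differences in log2FC were -3.18 ± 0.51 SE, -2.94 ± 0.51 SE and -3.07 ± 0.51 SE (p.adjust = 0.0018, 0.0014 and 0.00092). BMF also differed from all 3 lines, by 2.72, 2.58 and 2.69. TNFSF10 rose by 3.14 more than in NCI-N87, which had 6.49 CPM at 4 h and 9.25 CPM at 24 h.

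Further genes named by the rule for each line are given next, and several differed from more than 1 line. Against MKN7 these were SP6 (difference 2.53), PPFIBP2 (2.33), SAMD11 (2.22), RELN (-2.26), the receptor genes GPRC5B (-2.05) and GRPR (-1.86). RELN lost its call without MKN1 24 h replicate 1 (-1.93), 24 h replicate 2 (-2.02) or 4 h replicate 3 (-1.89). Against NCI-N87 they were the heme oxygenase HMOX1 (2.40), which had 522 CPM at 4 h and 133.9 CPM at 24 h in NCI-N87 and a log2FC of 0.44 in MKN1, ADM2 (2.39), AKAP12 (-2.58), MLPH (-2.41) and FOXL1 (-2.38). Against Hs746T they were ID3 (3.67 ± 0.35 SE) and ID2 (2.82), whose mean in Hs746T went from 16.8 to 5.48 CPM and from 4.79 to 2.38 CPM, SP6 (2.73), AKAP12 (-2.11), CDH11 (-2.10) and NT5E (-2.09). In Hs746T alone ID3 fell (log2FC -1.60, p.adjust = 0.0051), and ID2 was not called (log2FC -0.98, p.adjust = 0.22).

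**Figure D4:**
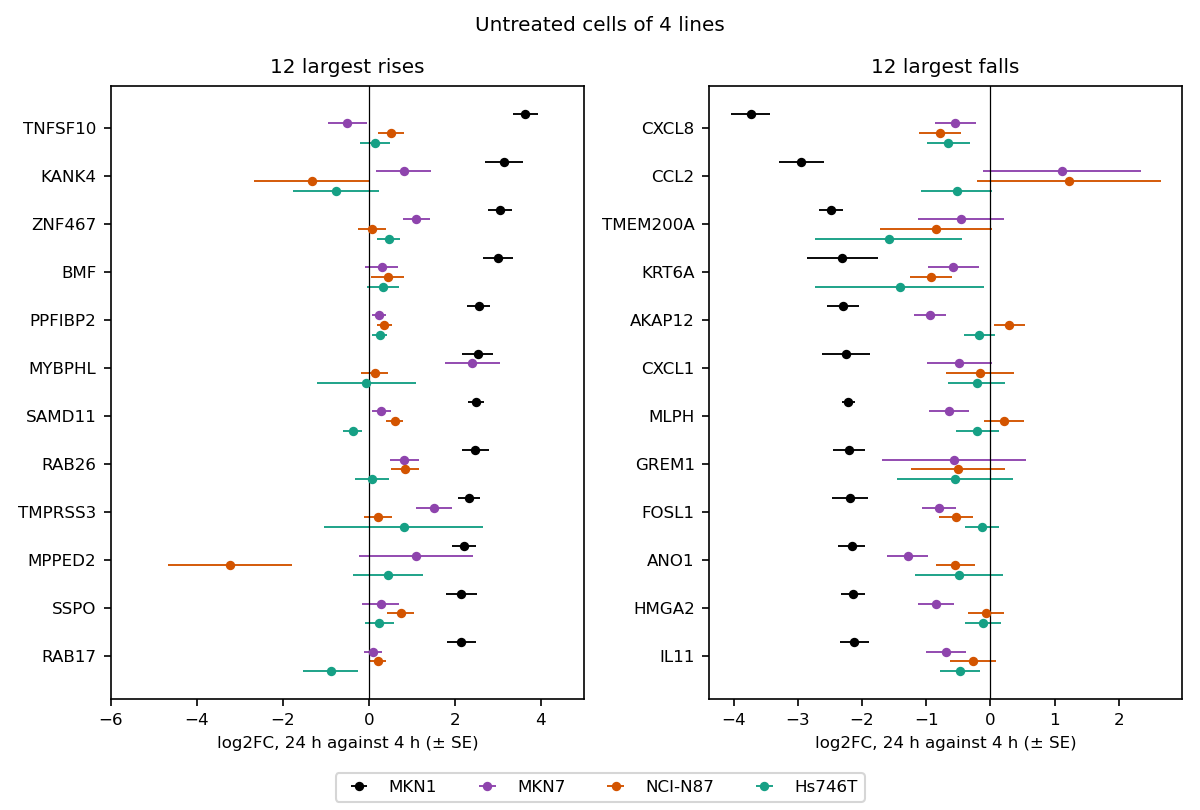
The log2FC of 24 h against 4 h (± SE) in untreated MKN1, MKN7, NCI-N87 and Hs746T cells for the 12 largest rises (left) and the 12 largest falls (right) of MKN1. Most values of the other lines lie near 0. Exceptions include MYBPHL in MKN7 (log2FC 2.40) and MPPED2 in NCI-N87 (log2FC -3.23), both at or below 0.257 CPM there.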

How the data were processed

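RNA was sequenced as poly(A) libraries made with a directional kit, and per the labels reads were trimmed with Trim Galore and aligned to hg38 with STAR. The authors deposited raw counts per Ensembl gene for each library, and the counter and annotation are not given in the sources used here. Of 65217 gene IDs per library, 56813 matched GENCODE 29 (GRCh38). The others held 0.0396% of the counts. Mitochondrial genes were at 0 throughout.

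Groups were taken from the sample titles. Genes were tested with edgeR 4.0.16 (R 4.3.3), quasi-likelihood test, TMM scaling and filterByExpr (minimum count 10), in 1 fit over the 42 MKN1 libraries, and in 1 fit over 24 untreated libraries for the comparison of lines, both with group means and no covariate. P-values were adjusted by Benjamini-Hochberg over all genes tested. CPM (counts scaled to a library of 1000000) are TMM-scaled except for the marker check, and log2 CPM used a prior count of 2. The labels do not say whether replicates came from separate cultures. The study's methods speak of independent experiments for work on cell lines in general without naming these libraries, so p-values measure the spread between these samples, which may be technical in part. The scripts were tested on simulated data. Alternatives were DESeq2 1.42.0, library size scaling, other filters, the replicate as a block, fits on the compared groups and leaving out each library.

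Same-numbered untreated MKN1 libraries at 4 h and 24 h deviated together (r = 0.179, 0.333 and 0.246 over 19815 genes), as did those of MKN7 and NCI-N87 (lowest r 0.123), whereas 1 pair of Hs746T gave 0.088. This was replicate 2, whose sample numbers restart between 4 h and 24 h and whose 24 h library held 25832557 counts. The replicate numbers thus pair the MKN1 samples.

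Named genes were the 12 largest rises and 12 largest falls under the conditions given in the text, members of lists with the largest changes or best known as markers, and for differences between lines the 4 largest in each direction among protein-coding genes with a mean log2 CPM above 1 in both lines and 1 direction in all 3 MKN1 pairs. For differences between treatments they were the 4 largest called in each direction among protein-coding genes with a mean log2 CPM above 1. All members and lists were chosen with earlier results of these data known. The other 72 libraries were not used. A few withheld genes are not reported here.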

Additional observations from a re-analysis of the deposited data

Results flagged for a closer look

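The time effect from 4 h to 24 h in untreated cells differed between MKN1 and other lines by a test of the difference itself, for 1.13% of genes against MKN7, 2.95% against NCI-N87 and 3.06% against Hs746T. In MKN1 cells the time effect differed between treated and untreated dishes for 2.7% of genes with EGF, 0.0555% with cetuximab and 0.575% with afatinib. With trastuzumab no gene was called by edgeR or DESeq2. At an unadjusted p under 0.05 were 229 and 186 genes, below the 991 expected if no gene differed. Groups of 3 replicates were not tested for outlying libraries.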

How the results depend on the processing

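Under library size scaling 224 genes were lower in untreated MKN1 cells. With at least 10 counts in every library 932 were regulated, 679 of them higher (902 with trastuzumab, 468 with EGF). Leaving out 1 library gave 1290 to 1825 regulated genes, 1001 to 1390 higher and 289 to 435 lower. The replicate block changed the counts of untreated MKN1 cells to 1367 higher and 404 lower, both within 1.5 times. The block gave 375 (MKN7), 43 (NCI-N87) and 54 (Hs746T) regulated genes, a time effect that differed from MKN1 for 2.63%, 5.24% and 5.2% of genes, and 889 (EGF), 83 (cetuximab) and 300 (afatinib) genes that differed from untreated. DESeq2 gave 1.82% for MKN7, 19 and 35 regulated genes in NCI-N87 and Hs746T, and 25 that differed with cetuximab. Without a filter 1.87% (NCI-N87) and 1.92% (Hs746T) of genes differed, over more genes tested. Fits on the compared groups gave 0 for cetuximab and 17 for afatinib. Leaving out 1 library gave 39 to 413 (MKN7), 6 to 23 (NCI-N87) and 0 to 26 (Hs746T) regulated genes. Leaving out 1 MKN1 library gave 0.596% to 1.33%, 1.69% to 3.5% and 1.81% to 3.5% for the differences of these lines from MKN1, the lowest without MKN1 24 h replicate 1 in each, and 0.685% for MKN7 without MKN1 4 h replicate 1. Libraries of the other lines were not left out for these differences. The differences from untreated ranged over 338 to 677 (EGF, lowest without untreated 24 h replicate 1), 3 to 21 (cetuximab) and 53 to 171 (afatinib) genes. Without untreated 4 h replicate 3 they were 3 (cetuximab) and 67 (afatinib), and without untreated 24 h replicate 3 they were 4 and 53. Afatinib also gave 68 without its 4 h replicate 1 and 60 without its 24 h replicate 3. For cetuximab, the count was also low without untreated 24 h replicate 2 (4) or its own 24 h replicate 1 (3) or 3 (4), 5 without untreated or cetuximab 4 h replicate 1 or 2, respectively, and 21 without untreated 24 h replicate 1. MKN7 had 39 without its 24 h replicate 1, 64 without 24 h replicate 2, 45 without 4 h replicate 3 and 413 without 24 h replicate 3. NCI-N87 had 20, 6 and 23 without its 4 h replicates 1, 2 and 3. Hs746T had 26, 0 and 5 without its 24 h replicates 1, 2 and 3, and 5 and 2 without its 4 h replicates 2 and 3. The causes were not tested. The block on the compared groups, chosen after seeing the data, gave 1078 higher and 342 lower.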
